A study of Homo sapiens with 2 samples.

Results

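The receptors of transforming growth factor-β (TGF-β) were examined for p52 summits in MDA-MB-231 cells treated with TWEAK, the cytokine ligand of Fn14. The 4 member genes were TGFBR3, TGFBR1, TGFBR2 and ENG, out of 20033 annotated protein-coding genes on chromosomes 1 to 22, X and Y. They were chosen by name, with the summit at TGFBR3 already known from these data, so the presence and strength of their summits are given as a description and no test was made on them. Every summit in a gene body or within 100 kb of it was counted. This gave 4 of the 2007 summits in replicate 1 and 2 of the 1467 in replicate 2, all near TGFBR3 and TGFBR1. TGFBR2 and ENG had 0 summits in both replicates.

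The ChIP-seq experiment used 1 group of 2 replicates from MDA-MB-231, an established line of triple-negative breast cancer (TNBC) origin. All cells were starved for 8 h and then kept in 10 ng/ml TWEAK for 48 h, with fresh TWEAK added after 24 h, and chromatin was precipitated with an antibody against NFKB2. An untreated, IgG or input library was not analysed here, so the effect of TWEAK on these sites cannot be told apart from binding that was there before. The files did not give read depth, and a gene without a summit had none called at the depth and threshold of that library. The methods of the study describe ChIP-seq in cell lines as done in biological replicates, while the labels of these samples number the replicates without naming separate cultures. An SD covers the spread between these 2 samples.

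In TGF-β signalling, the ligand binds the type II receptor TGFBR2, which recruits and phosphorylates the type I receptor TGFBR1, and TGFBR1 in turn phosphorylates SMAD proteins that enter the nucleus. TGFBR3, also called betaglycan, and ENG, or endoglin, are co-receptors. Betaglycan presents ligand to the signalling receptors and can be shed from the cell surface, while endoglin is best known from endothelial cells. p52, the DNA-binding product of NFKB2 processing, is an effector of non-canonical NF-κB signalling and binds κB elements as a dimer, often with RELB. AP-1 factors are dimers of JUN and FOS proteins that bind a short element of their own.

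The summits fell at 4 separate sites, 2 at each gene, whose sequences carry the contrast described here: 3 of them had a κB match and 1 had only an AP-1 match. A κB match was a 10-base stretch of GGG, a purine, any 2 bases, 2 pyrimidines and CC on either strand. An AP-1 match was TGAGTCA or its complement TGACTCA. A κB match lay within 100 bp of 3 of the 4 member summits of replicate 1 and both of replicate 2, where 52% and 57.3% of all summits on chromosomes 1 to 22, X and Y had such a match. All 4 sites were in introns or intergenic sequence, where κB matches were more frequent. In replicate 1 and replicate 2, 80.3% and 78.7% of intron summits had one, and 84.7% and 81.4% of intergenic summits. For AP-1 the counts were 2 of 4 and 1 of 2, against 7.93% and 7.67% of all summits. The AP-1 share was not taken for intron and intergenic summits alone. These AP-1 counts therefore lack a like comparison, and nothing is read from them. A match describes the sequence and does not show that a factor was bound through it. Each sequence is the plus strand of hg38 within 100 bp of the replicate 1 summit, written 5′ to 3′, and the capitals mark κB and AP-1 matches.
TGFBR3 site 1, chr1:91731935-91732135: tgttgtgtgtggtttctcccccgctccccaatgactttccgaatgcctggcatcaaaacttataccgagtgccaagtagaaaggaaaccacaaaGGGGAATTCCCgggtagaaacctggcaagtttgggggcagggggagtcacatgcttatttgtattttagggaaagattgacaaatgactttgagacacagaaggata
TGFBR3 site 2, chr1:91877930-91878130: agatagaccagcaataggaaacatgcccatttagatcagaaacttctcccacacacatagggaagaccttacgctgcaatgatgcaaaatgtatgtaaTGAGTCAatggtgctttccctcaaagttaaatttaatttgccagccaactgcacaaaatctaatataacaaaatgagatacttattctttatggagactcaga
TGFBR1 site 1, chr9:99174229-99174429: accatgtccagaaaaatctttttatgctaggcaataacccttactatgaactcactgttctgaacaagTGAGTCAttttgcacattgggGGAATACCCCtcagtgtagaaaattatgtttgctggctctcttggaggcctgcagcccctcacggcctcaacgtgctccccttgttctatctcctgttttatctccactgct
TGFBR1 site 2, chr9:99181711-99181911: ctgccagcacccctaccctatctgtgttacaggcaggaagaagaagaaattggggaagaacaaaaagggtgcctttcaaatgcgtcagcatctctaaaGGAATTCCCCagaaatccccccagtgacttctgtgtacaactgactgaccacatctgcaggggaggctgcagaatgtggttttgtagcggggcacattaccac

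TGFBR3 carried the strongest of these summits. TGFBR3 (ENSG00000069702.11) lies on the minus strand of chromosome 1 from 91680343 to 91906335. The summit of site 1 was at 91732035 in replicate 1, with −log10 q of 94.0, and at 91732038 in replicate 2, with −log10 q of 81.3. The −log10 q is the significance that MACS2 gave to the enrichment at the summit, and its mean was 87.6 ± 8.96 (SD, n = 2). The summits of the replicates lay 3 bp apart, closer than 82.0% of the 990 pairs of summits that were within 200 bp of each other in the 2 lists, whose median distance was 15 bp. Of all summits, 49.3% in replicate 1 and 67.5% in replicate 2 were shared in this way, and of those in introns 56.5% and 67.1%.

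Site 1 ranked 45 of 2007 in replicate 1 and 33 of 1467 in replicate 2. On chromosomes 1 to 22, X and Y it ranked 35 of 1804 and 14 of 1225. Among summits in introns it ranked 4 of 441 in replicate 1 and 3 of 371 in replicate 2. Among summits with a κB match it ranked 13 of 938 and 7 of 702. Its −log10 q was 1.16 times as high in replicate 1 as in replicate 2, and 68.7% of the 990 pairs had a higher ratio. The −log10 q depends on sequencing depth, so the ratio compares the lists and not the amount of p52.

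**Figure D1:**
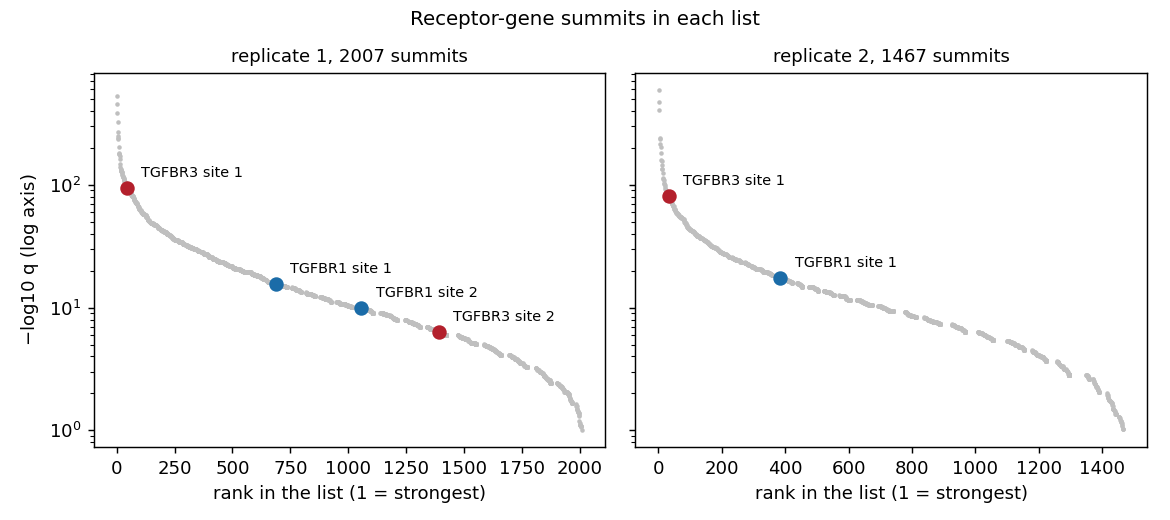
−log10 q on a log axis against rank for every summit of each list (grey), with the summits near TGFBR3 in red and those near TGFBR1 in blue. TGFBR3 site 1 stands near the top of both lists, at rank 45 and 33, while the other sites lie from rank 385 downwards.

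By position, site 1 was far from the main start of the gene. It lay in intron 5 of the 17-exon reference transcript, an intron of 4802 bp, and 2062 bp from the nearer exon in replicate 1. The start of that transcript was 154116 bp away. The nearest annotated start site was that of a 3-exon TGFBR3 transcript at 91727918, 4117 bp from the summit. The only other protein-coding gene within 100 kb of the TGFBR3 body was BRDT, a testis bromodomain gene. Introns held 24.4% of replicate 1 summits and 30.3% of replicate 2 summits on chromosomes 1 to 22, X and Y, and 80.3% and 78.7% of these intron summits had a κB match.

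The κB element of site 1 lay directly under the summits. It held overlapping κB matches, GGGGAATTCC at 91732029 to 91732038 and the palindrome GGGAATTCCC at 91732030 to 91732039. The centre of the palindrome was at −0.5 bp from the replicate 1 summit and −3.5 bp from that of replicate 2, counted along the plus strand. A κB match was centred within 5 bp of 22.1% of summits in replicate 1 and 22.9% in replicate 2. There was no AP-1 match within 500 bp of site 1.

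Both κB sequences were common at p52 summits. GGGGAATTCC, in either direction, was within 100 bp of 185 summits in replicate 1 and 155 in replicate 2, and the palindrome of 186 and 157. Among summits with GGGGAATTCC, site 1 ranked 6 of 185 and 3 of 155, where the median −log10 q was 18.3 and 11.5. The whole reference held 4394 matches of this sequence on chromosomes 1 to 22, X and Y. Of these, 5.05% were within 100 bp of a replicate 1 summit and 4.35% of a replicate 2 summit, against 0.411% and 0.317% of all 446679 κB matches.

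The same sequence also occurred at TGFBR3 without a summit. A second GGGGAATTCC lay in another intronic stretch of the gene, at 91892025 to 91892034, and the nearest summit to it was 13999 bp away in replicate 1 and 159991 bp away in replicate 2. A second palindrome, at 91588620 to 91588629, was 91719 bp outside the gene body and 143411 bp from the nearest replicate 1 summit. Neither of these places held the overlapping pair of site 1. In all, 66 κB matches were counted in the gene body and the 100 kb on either side, 15.5 per 100 kb against 14.5 per 100 kb over chromosomes 1 to 22, X and Y. Only the overlapping pair at site 1 lay within 100 bp of a summit, leaving 64 without.

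Site 2 of TGFBR3 differed from site 1 in strength, motif and sharing. It was called in replicate 1 alone, at 91878030, with −log10 q of 6.34 and rank 1390 of 2007. The nearest replicate 2 summit was 145992 bp away, at site 1. It lay in intron 1, 7902 bp from the nearest TGFBR3 start site and 8121 bp from that of the reference transcript, which makes it the summit closest to the main promoters of the gene. In replicate 1, site 2 ranked 340 of the 441 intron summits, where site 1 ranked 4.

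No κB match was within 500 bp of site 2. Instead an AP-1 match, at 91878028 to 91878034, was centred 1 bp from the summit. AP-1 without κB was rare in the lists, at 33 summits (1.83%) in replicate 1 and 12 (0.98%) in replicate 2. Their median −log10 q in replicate 1 was 6.97, close to the value of site 2, and 8 of the 33 were shared with replicate 2. An AP-1 match was centred within 5 bp of the summit in only 3 of these 33, site 2 among them. Over the reference, 0.0327% of 462326 AP-1 matches lay within 100 bp of a replicate 1 summit and 0.0227% of a replicate 2 summit.

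TGFBR1 had summits downstream of the gene and none within it. TGFBR1 (ENSG00000106799.14) lies on the plus strand of chromosome 9 from 99104038 to 99154192. The summit of site 1 was at 99174329 in replicate 1, with −log10 q of 15.7 and rank 688 of 2007. In replicate 2 it was at 99174311, with −log10 q of 17.6 and rank 385 of 1467. The mean −log10 q was 16.6 ± 1.33 (SD, n = 2), and the summits lay 18 bp apart, near the median of 15 bp. Site 1 of TGFBR1 was in both lists but of middle strength, well below site 1 of TGFBR3 in each.

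TGFBR1 site 1 was intergenic, 20137 bp past the end of the gene in replicate 1 and 20119 bp in replicate 2. Its nearest start site was that of the lncRNA ENSG00000227269, 9044 bp from the replicate 1 summit. The nearest protein-coding start site was an internal one of TGFBR1 at 99146832, 27497 bp away, and the reference start of TGFBR1 was 69216 bp away. On the other side, ALG2, a mannosyltransferase of N-glycan assembly, started 46811 bp away and SEC61B, a subunit of the endoplasmic reticulum translocon, 47735 bp away. The link of the site to TGFBR1 therefore rests on distance alone. Of all intergenic summits, 84.7% in replicate 1 and 81.4% in replicate 2 lay by a κB match, as this one did.

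**Figure D2:**
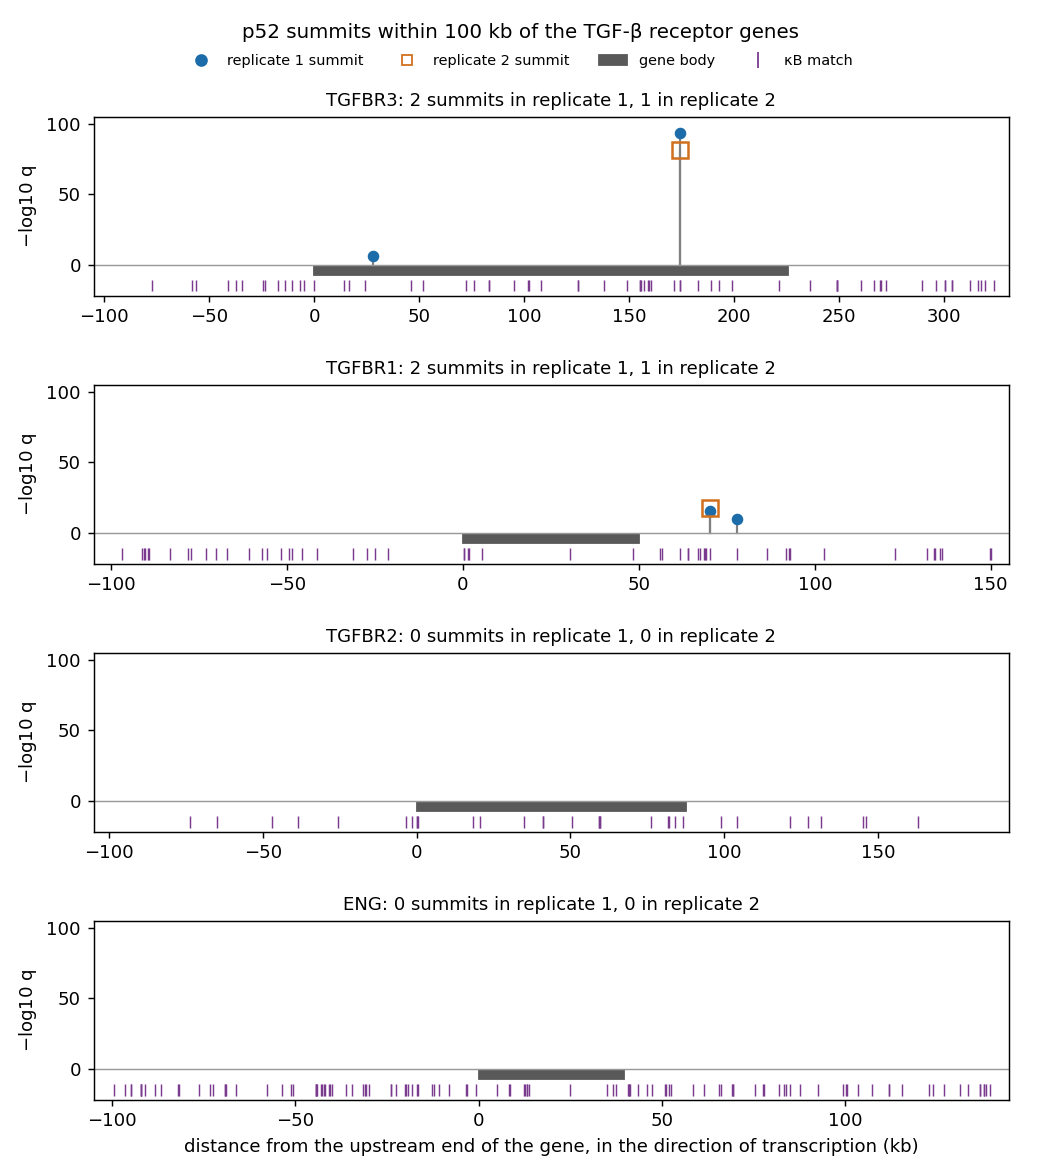
Summits within 100 kb of each gene, plotted by −log10 q against distance in kb from the upstream end of the gene, in the direction of transcription, with gene bodies as grey bars and κB matches as ticks. TGFBR3 has its tall shared summit deep in the gene, and TGFBR1 has weaker summits past its end. TGFBR2 and ENG have κB matches and 0 summits, where 0.411% and 0.317% of all κB matches were at a replicate 1 or replicate 2 summit.

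TGFBR1 site 1 joined both motifs. The κB match GGAATACCCC, which is GGGGTATTCC on the minus strand, was at 99174318 to 99174327, and an AP-1 match was at 99174297 to 99174303. The summits flanked the κB match, with its centre at −6.5 bp from the replicate 1 summit and +11.5 bp from that of replicate 2, and the replicate 2 summit fell between both motifs. The matches were separated by 14 bases, or 22.5 bp from centre to centre. Summits with both motifs within 100 bp made up 6.1% of replicate 1 (110 summits) and 6.69% of replicate 2 (82 summits). Their centres were a median of 29.5 bp apart in replicate 1, and 44 of the 110 were as close as at TGFBR1 or closer.

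The κB sequence of TGFBR1 site 1 was seldom found at summits. It was within 100 bp of 3 summits in each list, among which site 1 was the strongest, and 0.206% of its 1459 matches in the reference were at a summit in each replicate. A second copy lay at 99173037 to 99173046, 1288 bp from the replicate 1 summit and 1270 bp from that of replicate 2, with no summit of its own. Copies of the same 10 bases close together thus differed in whether a summit was called at them. The bases around the copies were not compared, and at site 1 an AP-1 match lay 14 bases from the κB match.

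Site 2 of TGFBR1 was called in replicate 1 alone, at 99181811, with −log10 q of 9.95. It was 1 of 5 summits with that value, at rank 1056 of 2007. It lay 27619 bp past the end of TGFBR1 and 1562 bp from the start site of ENSG00000227269, and the nearest replicate 2 summit was TGFBR1 site 1, 7500 bp away. Its κB match at 99181809 to 99181818, GGAATTCCCC, is GGGGAATTCC on the minus strand, the sequence of TGFBR3 site 1, and it was centred 2.5 bp from the summit. Among the 185 replicate 1 summits with this sequence it ranked 140, where TGFBR3 site 1 ranked 6, so 10 identical bases stood under summits of very different strength. The elements were not identical as a whole, since TGFBR3 site 1 also held the overlapping palindrome and TGFBR1 site 2 did not. All 171 stretches of 31 bases in each of the 4 windows occurred once in the reference, with its alternate sequences left out of the count.

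**Figure D3:**
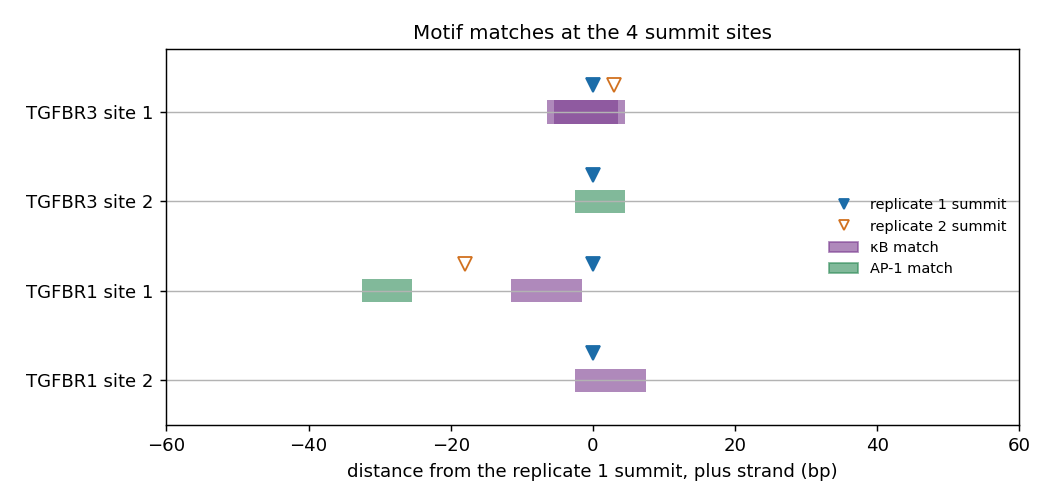
Positions in bp, relative to the replicate 1 summit, of the summits of each replicate (triangles), κB matches (purple) and AP-1 matches (green) at the 4 sites. The κB matches of TGFBR3 site 1 and TGFBR1 site 2 and the AP-1 match of TGFBR3 site 2 span the summit, whereas at TGFBR1 site 1 the replicate 2 summit falls between both motifs, 18 bp from that of replicate 1.

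TGFBR2 and ENG had no summit within 100 kb in either list. TGFBR2 (ENSG00000163513.19) lies on the plus strand of chromosome 3 from 30606601 to 30694142. The nearest summit was 1941302 bp away in replicate 1, with −log10 q of 47.6, and 778719 bp away in replicate 2, with −log10 q of 2.12. ENG (ENSG00000106991.14) lies on the minus strand of chromosome 9 from 127815013 to 127854658. Its nearest summits were 840275 bp away in replicate 1 and 840405 bp away in replicate 2, in exons of SET, with −log10 q of 8.99 and 7.92. Summits were sparse, at 0.584 per Mb of the autosomes, X and Y in replicate 1 and 0.397 per Mb in replicate 2. Of all 20033 protein-coding genes, 15028 had no summit within 100 kb in replicate 1 and 16671 had none in replicate 2. The lack of a summit near TGFBR2 and ENG was thus usual, and nothing particular to these genes is read from it.

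The peak numbers bear on whether calls near these genes were removed later. Calls were numbered in rising order along each sequence in both lists, with 0 exceptions. Across TGFBR2 the numbers ran on from 2417 to 2418 in replicate 1 and from 2641 to 2642 in replicate 2. Across ENG they ran on from 4022 to 4023 and from 4561 to 4562. The numbers around the 4 sites at TGFBR3 and TGFBR1 were also consecutive, although 2203 numbers were missing from the whole of replicate 1 and 3265 from replicate 2. No numbered call was therefore missing from these windows.

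κB matches were present at the genes without summits. There were 33 in the gene body and 100 kb on either side of TGFBR2, and 114 around ENG, which was 11.5 and 47.6 per 100 kb against 14.5 per 100 kb over chromosomes 1 to 22, X and Y. The ENG window had the highest GC content of the 4, 54.9% against 38.8% to 42.9%, and held 14 other protein-coding genes. Around TGFBR1 there were 56 matches, of which 2 were at a replicate 1 summit. Of all κB matches, 0.411% were within 100 bp of a replicate 1 summit and 0.317% of a replicate 2 summit. A κB match without a summit was thus usual. An AP-1 match was centred 3 bp from a TGFBR2 start site, at 30606595 to 30606601, with no summit near. The exact κB sequences of the sites at TGFBR3 and TGFBR1 had 0 matches in the windows of TGFBR2 and ENG.

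No receptor gene had a summit at its promoter, taken as the stretch within 1 kb of an annotated start site. RefSeq (GRCh38.p14) lists 12 promoters of 300 bases for the 4 genes, 8 of them for TGFBR1, which overlap in part and are not independent. A κB match was in 3 of the 12, all of TGFBR1, and an AP-1 match in 1, of TGFBR2. Over all 35116 promoters of this length the shares were 11.3% and 4.95%. The nearest summit to the centre of the TGFBR3 promoter was 8221 bp away in replicate 1 and 154213 bp in replicate 2. For TGFBR1 these distances were 68616 and 68598 bp, so the κB matches in its promoters had no summit at them.

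Set beside all protein-coding genes, the receptors were counted in the same way. Within 100 kb, 2 of the 4 receptor genes had a summit in each list, where 25% of all protein-coding genes did in replicate 1 and 16.8% in replicate 2. A shared summit was also near 2 of the 4, against 12.2% of genes. With 4 members picked by name, and TGFBR3 for its summit, nothing is read from these shares. In the gene body, 5.11% of genes had a summit in replicate 1, 3.25% in replicate 2 and 2.24% a shared one, and TGFBR3 alone of the receptors did. TGFBR3 is long, with 6.27% of protein-coding genes longer, and of the 1502 genes of at least 200 kb, 12.3% had a summit in the body in replicate 1, 9.65% in replicate 2 and 7.12% a shared one.

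The genes most like TGFBR3 were sought by the mean rank of the strongest shared intron summit over the 2 lists. Among 195 protein-coding genes with such a summit TGFBR3 was at the first place, with a mean rank of 39. TGFBR3 was chosen with this summit known, so its place is a description only. Over all intron summits, site 1 ranked 4 of 441 in replicate 1 and 3 of 371 in replicate 2. The nearest were AMMECR1 on chromosome X (mean rank 48), F2RL1, a protease-activated receptor, on chromosome 5 (66.5), FRMD6 on chromosome 14 (71), ACP6 on chromosome 1 (74) and ATXN1 on chromosome 6 (76). AMMECR1 had −log10 q of 89.5 in replicate 1 and 73.1 in replicate 2, so its values lay within 10 units of those of TGFBR3 in each list. All 5 had a κB match within 100 bp, and AMMECR1 also an AP-1 match. This likeness is over 2 lists only.

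The remaining TGF-β pathway was covered by a list of 61 genes in 7 roles. Of these, 14 had a summit within 100 kb in replicate 1 (23%), against 25% of all protein-coding genes, and 12 in replicate 2 (19.7%), against 16.8%. A shared summit was near 5 genes (8.2%), against 12.2%. These shares are near those of all genes. By role, shared summits were near 3 of 10 genes of latent ligand binding and activation, 1 of 6 ligands and 1 of 15 target genes. They were near 0 of the 10 other type I and type II receptors, 0 of the 4 adaptor and shedding genes and 0 of the 10 inhibitors, and the 6 SMAD transducers had 0 summits in either list.

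**Figure D4:**
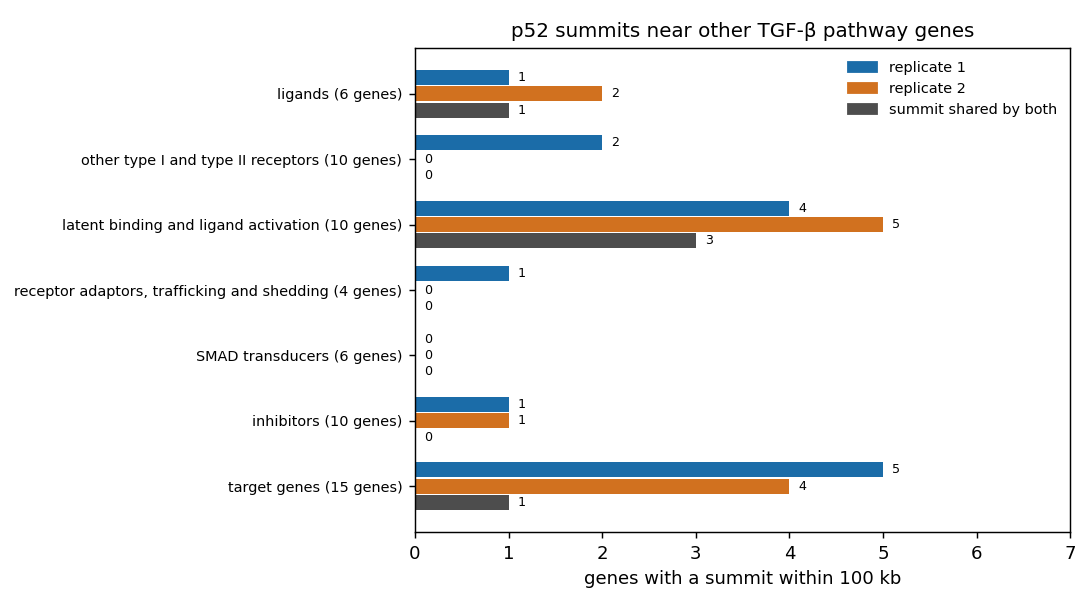
Number of genes of each role, out of the number in parentheses, with a summit within 100 kb in replicate 1, in replicate 2, or shared by both. Shared summits are near 3 of 10 genes of latent ligand binding and activation and 0 of 6 SMAD transducers, against 12.2% of all protein-coding genes. Each role holds few genes, so nothing is read from a difference between roles.

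Each of the 5 genes with a shared summit was examined. ITGB6, a subunit of the integrin that activates latent TGF-β, had it within an intron of its own, where −log10 q was 30.0 in replicate 1 and 28.5 in replicate 2. It had a κB match in both. FURIN, the protease that cuts the TGF-β precursor, also had it within an intron, 1432 bp from its start site. Its −log10 q was 8.52 in replicate 1 and 8.71 in replicate 2, and a κB match was present. At JUNB, an AP-1 subunit induced by TGF-β, it was 299 bp outside the gene and 1032 bp from a start site of HOOK2, where −log10 q was 17.5 and 5.75. It also had a κB match.

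The other two were nearer to other genes. BMP10, a ligand of the endothelial receptors of the family, had its summit 98016 bp away, in an intron with a start site of ARHGAP25 as the nearest, where −log10 q was 34.2 and 22.1. It too had a κB match. LTBP3, which holds latent TGF-β in the matrix, had it 39145 bp away, 323 bp from a start site of the lncRNA MALAT1, with −log10 q of 41.9 and 20.8 and no κB match. None of the 5 reached the strength of TGFBR3 site 1 in either list, while 3 of them, ITGB6, BMP10 and LTBP3, were above TGFBR1 site 1 in both.

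**Figure D5:**
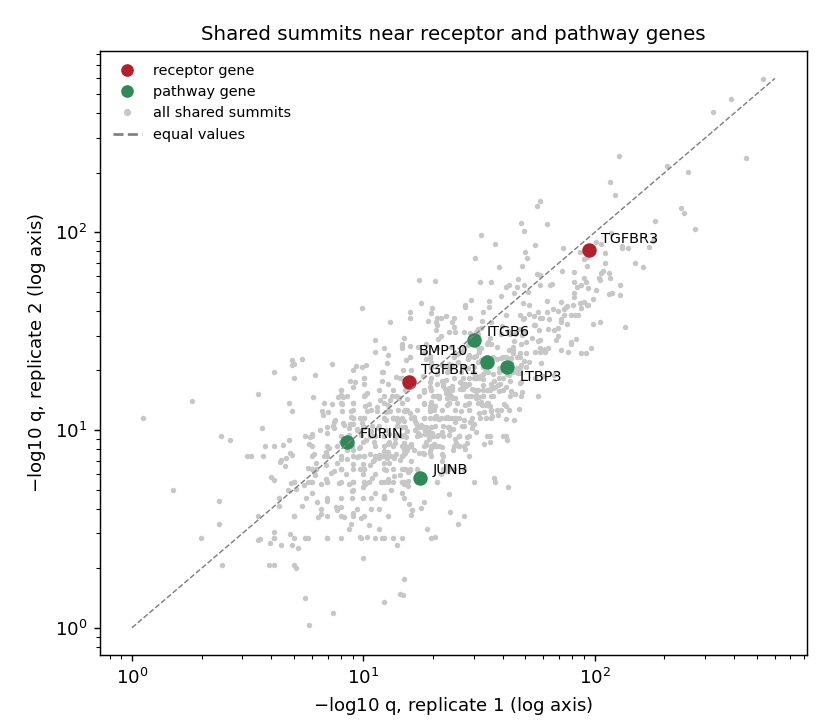
−log10 q in replicate 2 against replicate 1, both on log axes, for the 990 shared summits (grey), with those near receptor genes in red and near pathway genes in green, and a dashed line of equal values. TGFBR3 lies near the upper end, at 94.0 and 81.3, and TGFBR1 lies above the line of equal values, at 15.7 and 17.6.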

How the data were processed

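p52 ChIP-seq lists of 2 replicates of TWEAK-treated MDA-MB-231 cells were used. According to the methods of the study and the submitters' processing notes, adaptor removal by Trimmomatic was followed by alignment to hg38 in Bowtie2. The authors then used MACS2 for peak calling, with input signal subtracted, and took out blacklisted regions with bedtools. Versions, the q threshold and duplicate handling were not given in the sources used here. The deposited lists have no header and hold 1-bp summits. Their last column was read as the −log10 q-value of the peak caller used by the authors (MACS2), computed for each summit before the lists were deposited, and it depends on depth. Depth was unknown.

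Positions are 1-based on hg38. GENCODE release 44 gave genes, start sites and classes (promoter within 1 kb of any start site, then exon, intron, intergenic), and every list sequence was in the reference. Summits within 200 bp of each other were shared. Motifs had to lie within 100 bp of the summit. The share of called genes was set beside that of all protein-coding genes, and no test was made, as there was 1 group. Code was tested on simulated data. Python 3.11.15, numpy 2.4.6, numba 0.67.0, scipy 1.17.1 and matplotlib 3.10.9 were used.

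The members and lists were chosen with earlier results of these data known. Named were the 4 members, at most 10 list genes with a shared summit, the 5 genes nearest to TGFBR3 in mean rank, and genes with a start site nearest to a site. Other gene distances, sharing distances, motif settings, promoter widths, the stronger 50% of each list and single replicates were tried as alternatives.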

Additional observations from a re-analysis of the deposited data

How the results depend on the processing

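Of 66 values recomputed under the alternatives, 15 moved by over 1.5 times. In the stronger 50% of each list, 2 summits near the receptor genes were left in replicate 1, of which 1 had an AP-1 match, protein-coding genes with a summit within 100 kb fell to 2554 in replicate 1 and 1568 in replicate 2, and pathway genes to 6 in replicate 1, 4 in replicate 2, 7 in either and 3 with a shared summit. Within 50 kb, 2142 protein-coding genes in replicate 2 and 9 pathway genes in replicate 1 had a summit. Within 200 kb, 5257 protein-coding genes in replicate 2 had a summit and 9 pathway genes a shared one. With promoters of 2.5 kb, 1 summit in replicate 1, TGFBR1 site 2, counted as a promoter summit, of an lncRNA. Leaving out each replicate in turn left 2 to 4 of the 6 summits near the receptor genes and 12 to 14 of the 19 pathway genes with a summit. The shared summits at TGFBR3 and TGFBR1 were also called as shared within 50 bp and in the stronger 50% of each list. No paired analysis was possible because there was 1 group. Depth was unknown, and what a list holds depends on it.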

Other observations

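The summit closest to the limit of 100 kb among those left out lay upstream of TGFBR1. It was in an intron with a start site of COL15A1, a basement membrane collagen gene, as the nearest, at 98993788 in replicate 1 and 98993793 in replicate 2, 110250 and 110245 bp from TGFBR1. Its −log10 q was 26.3 and 19.6, above that of TGFBR1 site 1 in both lists, and it had a κB match in both. The farthest summit within the limit was TGFBR1 site 2, at 27619 bp.

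Of the 61 pathway genes, 19 had a summit within 100 kb in at least 1 list and 14 of these had no shared one. Over all 20033 protein-coding genes, 5005 had a summit in replicate 1 and 3362 in replicate 2, but only 2444 a shared one. A summit without a partner in the other list was thus common among all genes, and nothing particular to the pathway is read from these counts. The 4 named next were chosen after their values were seen. CDKN1A, the cell cycle inhibitor p21 and a target of TGF-β, had 2 summits in replicate 1 and 1 in replicate 2, none within 200 bp of each other, as did COL1A1, a fibrillar collagen gene. ZEB2, a repressor of epithelial genes, had 2 summits in replicate 1 and 0 in replicate 2. TGFB1, a ligand of the receptors described here, had 0 in replicate 1 and 1 in replicate 2.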
